A study of Mus musculus with 40 samples.

Results

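The genes described here are 39 genes of the cell cycle and of DNA replication, taken by gene symbol from 2 deposited tables of heart gene expression, 1 for male and 1 for female mice. All 39 were listed in both tables, out of 17831 genes listed in either, and all 39 passed the filter on low values. No measured value enters the rule itself, although the choice was made with earlier results of these data known. The 39 genes comprise 27 with roles in mitosis and 12 with roles in the licensing and copying of DNA.

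A dividing cell first licenses its replication origins by loading the MCM helicase, copies its DNA in S phase, and then condenses and separates its chromosomes under cyclin B, CDK1, Aurora and Polo-like kinases. Transcripts of the mitotic genes accumulate in G2 phase, and those of the replication genes earlier, around the entry into S phase. Adult cardiomyocytes rarely divide, whereas fibroblasts, endothelial cells and macrophages of the heart can re-enter the cell cycle after injury. A heart homogenate mixes all of these cells, and in such bulk samples a change in the number of cycling cells and a change in transcript per cell cannot be told apart.

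CM-Il11-Tg mice carry 1 allele each of the α-MHC-MerCreMer driver (MCM), a tamoxifen-activated Cre recombinase made in cardiomyocytes, and of *Rosa26-Il11*, a stop-blocked mouse *Il11* cassette that Cre releases. Their hearts were taken 1, 3 and 6 weeks after tamoxifen, which was injected on 5 consecutive days from 8 weeks of age. Control littermates, which the labels call wild type, were heterozygous for MCM without *Rosa26-Il11* and also received tamoxifen, while a further CM-Il11-Tg group, called uninduced here, received none. The labels mark both the controls and the uninduced hearts as baseline and give no time after tamoxifen for the controls, so 1 control group per sex served the comparisons at 1, 3 and 6 weeks, and time itself cannot be told apart from the transgene there. All mice were of a mixed C57BL/6N and C57BL/6J background, the tissue is labelled heart, and each library came from 1 mouse.

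There were 4 libraries per group and sex, except for 3 male controls and 3 male hearts at 6 weeks, because 2 male libraries with contradicting labels were left out. The 38 libraries used held 16663513 to 65333832 assigned reads. The tables of the sexes were normalized separately, so levels were compared within a sex only. *Il11* stayed at or below 0.166 CPM in every control, reached 15.5 to 49.1 CPM without tamoxifen and 328 to 819 CPM after it. *Myh6*, the adult myosin heavy chain of cardiomyocytes, was at 10751 CPM or more in every library. Male control replicate 4, the deepest library, and male uninduced replicate 3, the shallowest, stood above the rest of their groups for the 39 genes. Results that rest on them are given with and without them.

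Values are the authors' CPM, the reads of a gene divided by the scaled size of its library. Fold changes are on the log2 scale of CPM plus 0.5, given with their standard error (SE). The added 0.5 makes the changes of low genes smaller than those in CPM itself. A gene passed the limma test when its p-value, adjusted over all genes tested in that sex, was below 0.05. Because the level of a gene in CPM grows with its length, levels were compared between genes only per kilobase of annotated exon. On that scale *Pcna*, the sliding clamp that holds polymerases on DNA, was the most abundant of the 39 in controls, at 12.9 CPM per kilobase in females and 10.2 in males. The other 38 genes lay at or below 1.84 in females (*Mcm7*) and 1.45 in males (*Mcm6*). Such low levels were read from few reads, down to 1 read for a gene in a library.

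At 1 week after tamoxifen 15 of the 39 genes were higher in the hearts of both sexes, and 8 in neither. In females 28 of the 39 passed as higher and 0 as lower, against 15.3% and 13.1% of all 16956 genes tested. In males 18 passed as higher and 1, *Cenpf*, as lower, against 18.9% and 14.6% of 16931. The 15 shared genes are 53.6% of the higher female and 83.3% of the higher male genes: *Ccnb1*, *Ccnb2*, *Cdk1*, *Aurkb*, *Plk1*, *Bub1b*, *Melk*, *Ube2c*, *Anln*, *Mcm3*, *Mcm4*, *Mcm5*, *Mcm6*, *Tyms* and *Top2a*. The median change of the 39 genes was 0.88 in females and 0.55 in males, where the median of all genes was -0.02 and 0.02. A rise of at least 2-fold in CPM plus 0.5 was reached by 14 genes in females and 5 in males, against 5.82% and 6.11% of all genes.

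The size of these counts depended on single libraries and on the scaling. The male count of 19 genes fell to 10 without control replicate 1, to 9 without control replicate 3 and to 12 without the 1-week replicate 2, and was 18 without control replicate 4 and 20 without uninduced replicate 3. The female count of 28 fell lowest to 19, without control replicate 2 or without the 1-week replicate 2. When the reads were instead scaled to the total of each library, which moved the median change of all genes to 0.33 in males and 0.28 in females, 29 male and 36 female genes were higher and 0 lower. Under that scaling 6410 of all 16931 male and 7001 of all 16956 female genes were higher, and 646 and 583 lower.

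**Figure D1:**
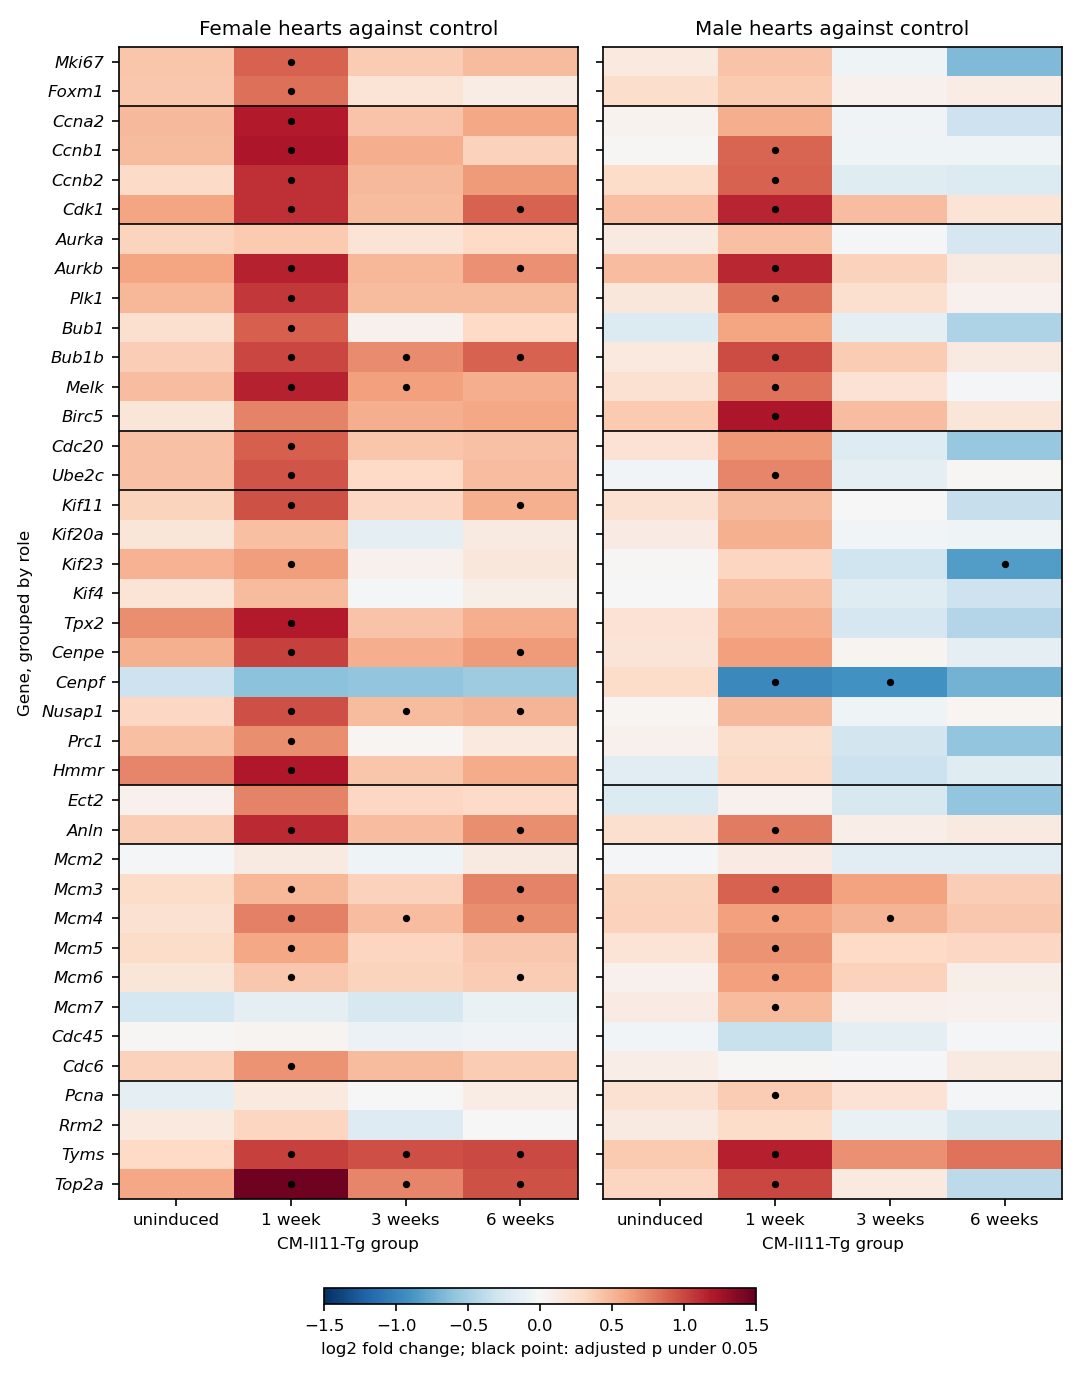
Log2 fold change of the 39 genes (rows, grouped by role with the mitotic genes above and the replication genes below) in uninduced hearts and 1, 3 and 6 weeks after tamoxifen, each against control hearts of the same sex. Black points mark adjusted p below 0.05, which were reached by 28 female and 19 male genes at 1 week, 6 and 2 at 3 weeks, and 12 and 1 at 6 weeks.

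Promoters are printed for the 5 genes with the largest mean change over both sexes and the 3 times and for the 2 with the change nearest 0, to show what sequence the members that moved together do and do not share. Each line gives 200 bases, from 170 before the start of the canonical transcript to the 30 first transcribed, 5′ to 3′, read from GRCm39 with GENCODE M39 starts. Capitals mark matches on either strand to the elements below. The CHR element of G2 and M phase promoters was searched with the letters TTTGAA and with its other common form, TTCGAA. The CCAAT box was searched by its name. The E2F-like sites were searched with the letters TTCCCGC, with the further form TTGGCGC, with the further form TTCGCGC, and with the last form searched, TTGCCGC.
Tyms: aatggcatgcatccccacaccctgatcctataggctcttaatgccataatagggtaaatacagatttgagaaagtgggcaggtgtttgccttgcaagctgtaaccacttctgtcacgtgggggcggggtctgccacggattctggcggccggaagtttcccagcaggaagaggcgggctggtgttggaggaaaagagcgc
Cdk1: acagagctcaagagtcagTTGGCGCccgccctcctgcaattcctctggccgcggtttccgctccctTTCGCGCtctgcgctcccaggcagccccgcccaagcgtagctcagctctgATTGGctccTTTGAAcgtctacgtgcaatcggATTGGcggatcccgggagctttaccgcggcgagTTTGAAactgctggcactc
Bub1b: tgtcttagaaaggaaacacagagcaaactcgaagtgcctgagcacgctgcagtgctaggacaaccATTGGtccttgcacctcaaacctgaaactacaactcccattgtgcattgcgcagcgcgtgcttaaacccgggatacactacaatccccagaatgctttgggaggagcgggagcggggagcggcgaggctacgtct
Aurkb: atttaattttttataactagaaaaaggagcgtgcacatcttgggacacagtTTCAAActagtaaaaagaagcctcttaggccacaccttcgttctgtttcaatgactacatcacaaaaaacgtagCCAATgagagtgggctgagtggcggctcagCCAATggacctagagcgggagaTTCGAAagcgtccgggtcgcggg
Top2a: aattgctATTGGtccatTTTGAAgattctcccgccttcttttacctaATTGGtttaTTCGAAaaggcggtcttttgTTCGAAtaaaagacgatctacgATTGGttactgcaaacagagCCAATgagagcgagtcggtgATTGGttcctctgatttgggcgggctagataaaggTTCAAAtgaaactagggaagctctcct
Mcm2: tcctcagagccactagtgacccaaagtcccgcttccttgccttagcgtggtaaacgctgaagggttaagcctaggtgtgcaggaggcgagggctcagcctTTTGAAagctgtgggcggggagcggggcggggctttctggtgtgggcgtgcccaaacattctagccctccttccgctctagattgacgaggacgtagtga
Kif23: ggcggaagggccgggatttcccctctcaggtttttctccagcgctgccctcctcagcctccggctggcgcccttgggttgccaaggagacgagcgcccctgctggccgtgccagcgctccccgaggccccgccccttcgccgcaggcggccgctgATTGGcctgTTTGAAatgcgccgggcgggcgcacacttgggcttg

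These windows lie at chr5:30278598-30278797, minus strand (*Tyms*), chr10:69188739-69188938, minus strand (*Cdk1*), chr2:118428514-118428713, plus strand (*Bub1b*), chr11:68936297-68936496, plus strand (*Aurkb*), chr11:98915012-98915211, minus strand (*Top2a*), chr6:88875733-88875932, minus strand (*Mcm2*) and chr9:61854044-61854243, minus strand (*Kif23*). The mean changes were 0.94, 0.71, 0.68, 0.66 and 0.65 for the first 5 and 0.00 and 0.01 for *Mcm2* and *Kif23*. *Tyms* held none of the sequences in this window and *Bub1b* a CCAAT box alone, while *Top2a* held CHR and CCAAT sequences several times over. *Mcm2* and *Kif23*, with mean changes near 0, held a CHR sequence too. Just upstream of the printed bases, within the longer window counted below, *Bub1b* also held a CHR sequence (TTCGAA) and *Mcm2* a CCAAT box. The *Kif23* mean near 0 averages opposite changes, 0.63 in females at 1 week (adjusted p = 0.0228) and -0.84 in males at 6 weeks (adjusted p = 0.0116).

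Over the longer window of 250 bases before and 50 after the start, a CHR sequence was present in 19 of the 39 promoters, in 16 of the 27 mitotic and 3 of the 12 replication genes, and in 18.8% of the promoters of all 21770 protein-coding genes. A CCAAT box was present in 27 of the 39 and in 39.9% of all, and an E2F-like site in 9 of the 39 and in 11.2% of all. TTCGAA reads the same on both strands and was counted once, and CCAAT on the minus strand can share bases with TTGGCGC, in which case both were counted. A match describes these letters only and does not show that a factor binds there. A gene whose window holds no match may hold other sequences for the same factors.

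*Mki67*, which encodes the proliferation antigen Ki-67 that coats mitotic chromosomes, was at 6.03, 4.16, 4.4 and 5.71 CPM in the female controls. It was at 8.82, 12.4, 8.78 and 8.93 CPM in the female hearts at 1 week (log2 fold change 0.88 ± 0.28, adjusted p = 0.0239), so that every induced heart lay above every control. In males the controls already spread from 4.16 to 10.7 CPM, and the hearts at 1 week, at 9.47, 12.2, 9.54 and 5.43 CPM, overlapped with them (log2 fold change 0.43 ± 0.33, adjusted p = 0.346). *Foxm1*, the transcription factor that activates many G2 and M phase genes, likewise passed in females and not in males. Female values were 1.42, 0.823, 2.1 and 2.22 CPM in controls and 2.53, 3.46, 2.84 and 3.99 CPM at 1 week, without overlap (log2 fold change 0.83 ± 0.29, adjusted p = 0.035). Male values were 1.5, 1.29 and 2.34 CPM in controls and 2.41, 3, 2.39 and 1.72 CPM at 1 week, with overlap (log2 fold change 0.39 ± 0.24, adjusted p = 0.213).

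The mitotic cyclins and their kinase gave some of the largest rises. Cyclin B1 (*Ccnb1*), the activating subunit of CDK1, was at 0.474, 0.436, 0.951 and 0.721 CPM in female controls and 1.53, 3.12, 1.42 and 2.73 CPM at 1 week (log2 fold change 1.21 ± 0.26, adjusted p = 0.00167). Male hearts had 0.712, 0.492 and 1.22 CPM in controls and 1.98, 2.4, 1.83 and 1.27 CPM at 1 week (log2 fold change 0.87 ± 0.25, adjusted p = 0.0114). No induced heart of either sex overlapped with its controls. On CPM plus 0.5 the female rise was 2.31-fold against 1.83-fold in males, a difference that did not pass by limma (adjusted p = 0.682). The group means themselves went from 0.645 to 2.2 CPM in females and from 0.808 to 1.87 CPM in males. *Cdk1*, which drives entry into mitosis, was at 0.947, 0.968, 1.4 and 0.998 CPM in female controls and 2.03, 3.39, 2.59 and 3.73 CPM at 1 week (log2 fold change 1.10 ± 0.27, adjusted p = 0.00354). Its male values were 1.01, 0.682 and 1.61 CPM in controls and 2.18, 3.46, 2.96 and 3.33 CPM at 1 week (log2 fold change 1.14 ± 0.31, adjusted p = 0.00756). Again the groups were separate in both sexes. Cyclin A2 (*Ccna2*), which acts with CDK2 and CDK1 from S phase to early mitosis, rose in females from 1.12, 0.774, 2.45 and 2.27 CPM to 2.7, 6.14, 3.39 and 5.07 CPM (log2 fold change 1.19 ± 0.35, adjusted p = 0.0135). In males it was at 2.14, 1.51 and 2.47 CPM and 3.08, 3.73, 3.62 and 2.43 CPM, with 1 of the 4 induced hearts within the control range, and the change did not pass (log2 fold change 0.55 ± 0.26, adjusted p = 0.116). Cyclin B2 (*Ccnb2*) rose by 1.09 in females and 0.89 in males (adjusted p = 0.00314 and 0.0139).

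Among the 7 mitotic kinases and their partners, 5 passed as higher at 1 week in each sex. *Aurkb*, the Aurora kinase that corrects faulty attachments of chromosomes to the spindle, was at 0.646, 0.436, 0.901 and 0.942 CPM in female controls and 1.32, 2.79, 2.47 and 2.52 CPM at 1 week (log2 fold change 1.16 ± 0.21, adjusted p = 0.000271). Male hearts had 0.337, 0.454 and 1.25 CPM in controls and a narrow 1.94, 1.75, 2.03 and 2.06 CPM at 1 week (log2 fold change 1.13 ± 0.27, adjusted p = 0.0032). All 8 induced hearts exceeded every control of their sex. *Birc5*, which encodes survivin, the partner of Aurora B in the chromosomal passenger complex, showed the largest rise of the male genes, from 0.787, 0.568 and 1.01 CPM to 2.14, 2.77, 2.63 and 2.28 CPM (log2 fold change 1.21 ± 0.23, adjusted p = 0.000505). Its female controls were dispersed, at 0.431, 0.968, 1 and 1.61 CPM, and overlapped with the 1.24, 2.19, 1.63 and 2.86 CPM of the hearts at 1 week (log2 fold change 0.74 ± 0.30, adjusted p = 0.0743).

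*Plk1*, the Polo-like kinase of centrosome maturation and mitotic exit, was at 0.56, 0.484, 0.6 and 0.721 CPM in female controls and 1.03, 2.75, 1.42 and 2.26 CPM at 1 week (log2 fold change 1.06 ± 0.21, adjusted p = 0.000709). In male hearts it was at 0.412, 0.606 and 1.16 CPM and 1.44, 1.8, 1.8 and 1.42 CPM (log2 fold change 0.83 ± 0.28, adjusted p = 0.0271). The groups did not overlap in either sex, and the male change did not pass by edgeR (adjusted p = 0.0623). *Bub1b*, which encodes the spindle checkpoint protein BUBR1, was at 1.38, 1.26, 1.55 and 1.61 CPM in female controls and 2.81, 4.87, 2.89 and 3.34 CPM at 1 week (log2 fold change 1.00 ± 0.22, adjusted p = 0.00181). The male values were 1.12, 1.59 and 2.7 CPM and 3.58, 4.43, 4.79 and 2.96 CPM (log2 fold change 0.98 ± 0.26, adjusted p = 0.00683), again without overlap. *Melk*, a kinase of dividing and progenitor cells, rose by 1.15 in females and 0.82 in males (adjusted p = 0.000601 and 0.0245). *Bub1*, a kinase of the checkpoint at kinetochores, rose in females (log2 fold change 0.90 ± 0.28, adjusted p = 0.0207) and did not pass in males (log2 fold change 0.59 ± 0.31, adjusted p = 0.162). *Aurka*, the Aurora kinase of the spindle poles, passed in neither sex, with changes of 0.39 ± 0.24 in females and 0.45 ± 0.23 in males.

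The anaphase-promoting complex degrades cyclin B and so ends mitosis. Its activator *Cdc20* was at 1.21, 0.823, 1.75 and 1.16 CPM in female controls and 1.28, 4.35, 2.51 and 3.47 CPM at 1 week (log2 fold change 0.90 ± 0.27, adjusted p = 0.0144), with 1 induced heart inside the control range. In males all 4 hearts at 1 week, at 2.64, 3.32, 2.79 and 3 CPM, lay above the controls at 1.2, 1.63 and 2.38 CPM, yet the change did not pass (log2 fold change 0.65 ± 0.28, adjusted p = 0.0845). *Ube2c*, its ubiquitin-conjugating enzyme, passed in both sexes. It was at 0.861, 0.677, 1.65 and 1.44 CPM in female controls and 1.49, 3.94, 1.97 and 3.64 CPM at 1 week (log2 fold change 0.94 ± 0.24, adjusted p = 0.00628), and at 1.72, 0.871 and 1.56 CPM in male controls and 2.41, 2.86, 2.76 and 2.28 CPM at 1 week (log2 fold change 0.73 ± 0.21, adjusted p = 0.0114). The male groups were separate, and 1 of the 4 female induced hearts lay within the control range.

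Of the 10 spindle, kinetochore and kinesin genes, 7 passed at 1 week as higher in females and 0 as lower, whereas in males 0 passed as higher and 1 as lower by limma and by edgeR alike. The male median was nonetheless 0.47, against 0.82 in females, and the difference between the sexes passed for none of these genes. *Kif11*, the kinesin that pushes the spindle poles apart, was at 1.46, 1.11, 1.55 and 1.61 CPM in female controls and 1.99, 4.09, 3.14 and 4.03 CPM at 1 week (log2 fold change 0.95 ± 0.21, adjusted p = 0.00211). Its male values, 1.24, 1.44 and 2.67 CPM and 2.14, 3.32, 2.69 and 2.36 CPM, overlapped (log2 fold change 0.49 ± 0.27, adjusted p = 0.165). *Nusap1*, a microtubule-bundling spindle protein, was at 1.08, 1.5, 1.8 and 1.44 CPM and 2.99, 3.42, 3.09 and 3.69 CPM in females (log2 fold change 0.97 ± 0.18, adjusted p = 0.000313). Its male values were 2.02, 1.48 and 2.28 CPM and 2.31, 3.64, 3.69 and 2.13 CPM (log2 fold change 0.49 ± 0.26, adjusted p = 0.166). The female groups were separate and the male groups overlapped in these genes.

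*Hmmr*, a hyaluronan receptor that also binds the spindle, was among the 3 largest female rises, from 0.344, 0.387, 0.3 and 0.721 CPM to 1.03, 2.05, 1.76 and 1.82 CPM (log2 fold change 1.20 ± 0.28, adjusted p = 0.00295). In males it was at 0.675, 0.53 and 1.11 CPM in controls and 1.07, 1.01, 0.898 and 1.12 CPM at 1 week (log2 fold change 0.29 ± 0.27, adjusted p = 0.431). *Tpx2*, *Cenpe*, *Prc1* and *Kif23*, which act in spindle assembly, chromosome alignment and the central spindle, rose in females by 1.19, 1.02, 0.70 and 0.63. Their male changes, 0.54, 0.61, 0.26 and 0.32, did not pass. *Kif20a* and *Kif4* passed in neither sex, at 0.45 and 0.47 in females and 0.53 and 0.45 in males. *Kif20a* shares 2748 exon bases with *Cdc23* on the opposite strand, as 17 of the 39 genes share some with a gene on the other strand. Whether the counting used the strand is not given in the sources used here, so reads of such pairs cannot be told apart. *Tyms*, *Ccnb1*, *Pcna* and *Kif4* also have processed copies in the mouse annotation, and reads shared with those are uncertain.

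*Cenpf*, a large kinetochore protein that also gathers at the nuclear envelope in G2 phase, ran against the other mitotic genes. Male controls were at 10, 13.4 and 15.3 CPM, while the induced hearts were at 3.82, 7.52, 6.02 and 8.73 CPM at 1 week, 4.13, 9.69, 6.77 and 6.7 CPM at 3 weeks and 6.94, 8.93 and 7 CPM at 6 weeks. Every induced male heart lay below every control. The log2 change was -0.97 ± 0.28 at 1 week (adjusted p = 0.0124), -0.91 ± 0.28 at 3 weeks (adjusted p = 0.0259) and -0.71 ± 0.30 at 6 weeks (adjusted p = 0.0884). In female controls it was at 13.8, 22.1, 13.5 and 13.3 CPM, against 7.93, 13.1, 8.74 and 9.98 CPM at 1 week, 13.2, 7.33, 8.46 and 12.3 CPM at 3 weeks and 7.69, 7.99, 9.45 and 20 CPM at 6 weeks. Here the hearts at 1 and 3 weeks were again below every control and 1 heart at 6 weeks was not, but none of the female changes passed (adjusted p = 0.171, 0.191 and 0.2). Scaled to total reads, the male changes kept their sign and did not pass either, at -0.63 and -0.65 (adjusted p = 0.0857 and 0.103).

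Of the cytokinesis genes, *Anln*, the actin-binding anillin of the cleavage furrow, rose in both sexes. It was at 1.03, 1.55, 1.95 and 2.16 CPM in female controls and 2.56, 6.1, 3.64 and 4.94 CPM at 1 week (log2 fold change 1.12 ± 0.25, adjusted p = 0.00219). The male values were 1.76, 1.02 and 2.78 CPM and 2.81, 4.1, 3.19 and 3.37 CPM (log2 fold change 0.78 ± 0.29, adjusted p = 0.0423), and neither sex showed an overlap, although the male change did not pass by edgeR (adjusted p = 0.0857). *Ect2*, the exchange factor that positions the furrow, passed in neither sex (0.74 ± 0.31 in females, 0.06 ± 0.27 in males).

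**Figure D2:**
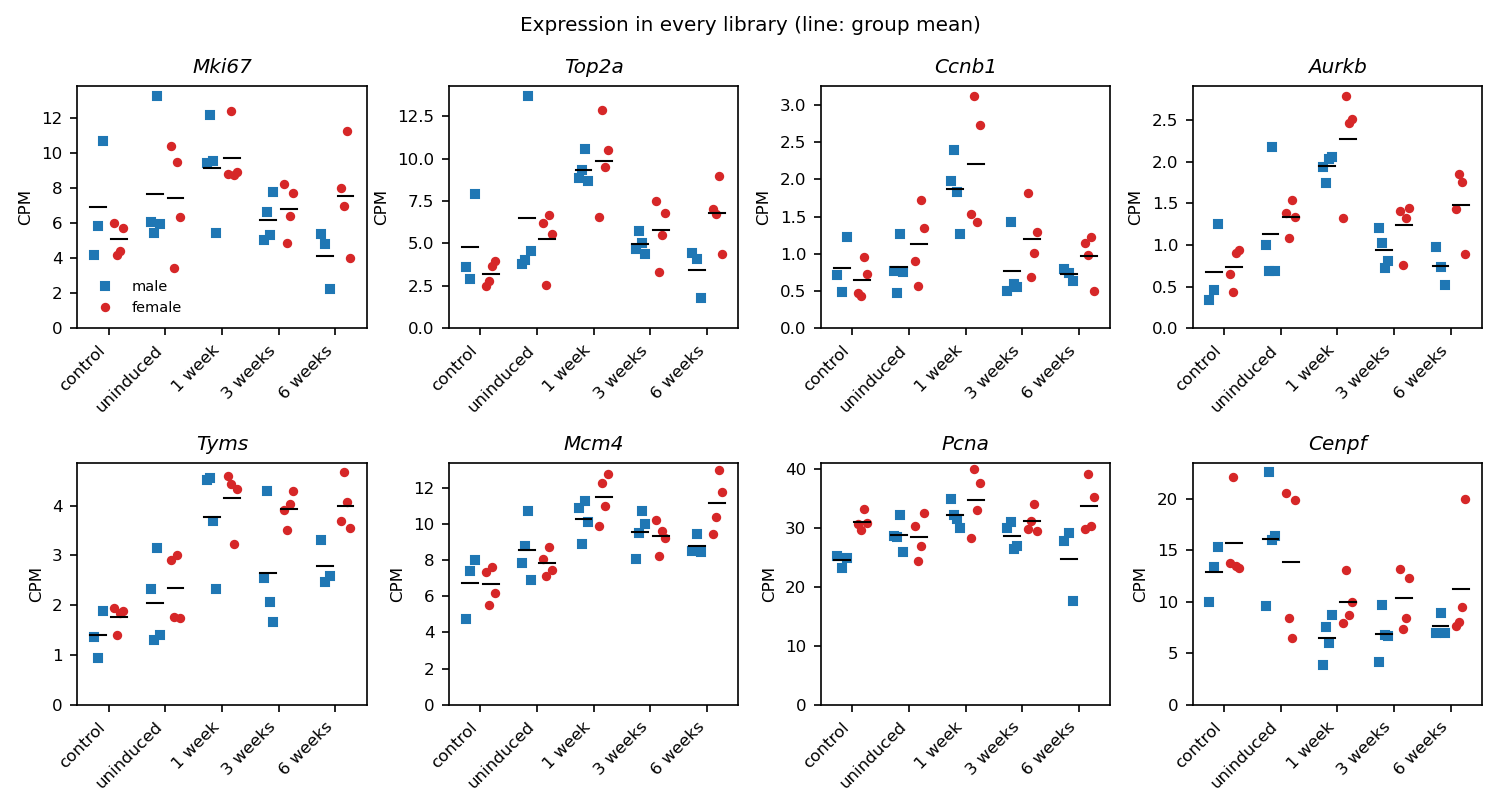
CPM of 8 of the genes (vertical axis, linear from 0) in every library of the 5 groups, males as blue squares and females as red circles, with a black line at each group mean. *Mki67*, *Top2a*, *Ccnb1* and *Aurkb* had their highest means 1 week after tamoxifen in both sexes, *Tyms* and *Mcm4* stayed high at 3 and 6 weeks in females, and *Cenpf* was lower in induced than in control hearts.

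Among the 8 genes of origin licensing and the replicative helicase, 5 passed as higher at 1 week in each sex. *Mcm4*, a subunit of the hexameric MCM helicase, was at 7.32, 5.52, 7.6 and 6.21 CPM in female controls and 9.89, 12.3, 11 and 12.8 CPM at 1 week (log2 fold change 0.75 ± 0.12, adjusted p = 8.57e-05). In males it was at 4.76, 7.38 and 7.99 CPM and 10.9, 8.9, 11.3 and 10.1 CPM (log2 fold change 0.61 ± 0.17, adjusted p = 0.00877). Every induced heart lay above every control of its sex. *Mcm6* was at 9.3, 7.36, 9.16 and 8.76 CPM in female controls and 9.82, 13.4, 11.1 and 12.3 CPM at 1 week (log2 fold change 0.41 ± 0.14, adjusted p = 0.039), and at 6.52, 7.8 and 9.26 CPM and 13.1, 12.7, 11.2 and 12.1 CPM in males (log2 fold change 0.62 ± 0.17, adjusted p = 0.00722). *Mcm5* was at 4.13, 2.95, 3.7 and 3.77 CPM in female controls and 4.59, 6.32, 5.69 and 6.12 CPM at 1 week (log2 fold change 0.58 ± 0.17, adjusted p = 0.0143). Its male values, 1.99, 3.22 and 4.79 CPM and 5.29, 7.33, 5.42 and 3.75 CPM, passed with overlap in 1 heart (log2 fold change 0.67 ± 0.25, adjusted p = 0.044), but not by edgeR (adjusted p = 0.0673).

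The subunits of the same helicase did not move alike. *Mcm2* was at 6.11, 5.95, 5.8 and 6.54 CPM in female controls and 6.44, 6.25, 6.65 and 7.59 CPM at 1 week, and at 4.98, 6.13 and 7.46 CPM and 6.8, 7.01, 7.45 and 5.62 CPM in males, with overlap in both. Its changes at 1 week were 0.13 ± 0.14 and 0.12 ± 0.17, and it passed in no comparison on the authors' scaling. Scaled to total reads, which moved the median of all genes upwards, it passed by limma at 1 week in both sexes. The change was then 0.45 in females (adjusted p = 0.0149) and 0.45 in males (adjusted p = 0.0431). It also passed in females at 6 weeks, at 0.51 (adjusted p = 0.00542). *Mcm3* rose by 0.88 in males and 0.50 in females (adjusted p = 0.00359 and 0.0215). *Mcm7* rose in males (log2 fold change 0.48 ± 0.16, adjusted p = 0.0268), while its female change was -0.15 ± 0.12. The difference between the sexes in *Mcm7* was -0.63 ± 0.19 in females relative to males and did not pass (adjusted p = 0.0886). *Cdc6*, which loads the helicase, was at 0.344, 0.387, 0.7 and 0.443 CPM in female controls and 0.711, 1.15, 1.09 and 1.21 CPM at 1 week (log2 fold change 0.67 ± 0.19, adjusted p = 0.0106). Male values were 0.675, 0.265 and 0.944 CPM and 0.803, 0.415, 0.765 and 0.487 CPM (log2 fold change 0.02 ± 0.24, adjusted p = 0.964). *Cdc45*, which joins the helicase when origins fire, had changes of 0.04 ± 0.19 in females and -0.33 ± 0.19 in males. It passed in no comparison on the authors' scaling.

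The replication fork and nucleotide genes held the largest female change. *Top2a*, the topoisomerase that untangles replicated DNA and is made in S, G2 and M phases, was at 2.5, 2.76, 3.65 and 3.94 CPM in female controls and 6.58, 12.9, 9.49 and 10.5 CPM at 1 week (log2 fold change 1.46 ± 0.27, adjusted p = 0.000376). In males it was at 3.6, 2.92 and 7.9 CPM and 8.84, 9.31, 10.6 and 8.69 CPM (log2 fold change 1.00 ± 0.35, adjusted p = 0.0347), without overlap in either sex, although the male change did not pass by edgeR (adjusted p = 0.0805). *Tyms*, the thymidylate synthase that makes the DNA-specific nucleotide dTMP, was at 1.94, 1.4, 1.85 and 1.88 CPM in female controls and 4.59, 4.43, 3.22 and 4.34 CPM at 1 week (log2 fold change 1.03 ± 0.16, adjusted p = 4.43e-05). Male hearts had 1.35, 0.947 and 1.89 CPM and 4.52, 4.56, 3.69 and 2.32 CPM (log2 fold change 1.17 ± 0.28, adjusted p = 0.00382). The groups did not overlap. *Pcna* was at 25.2, 23.2 and 24.9 CPM in male controls and 34.8, 32.1, 31.4 and 30 CPM at 1 week (log2 fold change 0.38 ± 0.14, adjusted p = 0.0376), and at 30.6, 29.5, 33.1 and 30.7 CPM and 28.2, 39.9, 33 and 37.6 CPM in females, where it did not pass (log2 fold change 0.15 ± 0.11, adjusted p = 0.349). *Rrm2*, the S phase subunit of ribonucleotide reductase, was at 1.68, 1.69, 2.45 and 2.49 CPM in female controls and 2.31, 3.39, 2.26 and 2.86 CPM at 1 week, and at 1.42, 1.36 and 2.39 CPM and 2.58, 2.9, 2.13 and 1.27 CPM in males, with overlap in both. Its changes, 0.32 ± 0.21 in females and 0.28 ± 0.22 in males, did not pass.

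By 3 and 6 weeks fewer of these genes differed from control. In females 6 passed as higher at 3 weeks and 12 at 6 weeks, with 0 lower, against 16.8% and 21.7% of all genes higher and 14.5% and 21% lower. In males 1 passed as higher (*Mcm4*) and 1 as lower (*Cenpf*) at 3 weeks, and 0 as higher and 1 as lower (*Kif23*) at 6 weeks. The shares of all male genes were 13.2% and 16.2% higher, and 8.1% and 10.9% lower. At an unadjusted p below 0.05 the limma fit gave 2 higher and 2 lower male genes at 6 weeks, where 6527 of all 16931 genes reached that level. At the adjusted threshold edgeR also called 0 higher and 1 lower. The female share was thus near that of all genes at 3 weeks and above it at 6 weeks, and the male share of higher genes was below it at both. The median change of the 39 genes was 0.38 and 0.46 in females and -0.02 and -0.06 in males, where the median of all genes was -0.02 and -0.02 in females and 0.00 and -0.01 in males. These comparisons share their controls with those at 1 week.

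The counts at the later times leaned on single libraries. The female count of 6 at 3 weeks became 11 without the 3-week replicate 2, and 2 without the 3-week replicate 1 or control replicate 2, with 3 without the 3-week replicate 3 or 4, without the 1-week replicate 3 or 4, or without the 6-week replicate 1. Those libraries of other groups enter through the shared estimate of the spread. The female count of 12 at 6 weeks became 7 without the 6-week replicate 2 or 3 or control replicate 2. It was 17 without the 6-week replicate 4. The male count of 2 at 3 weeks was 1 without control replicate 1 or 3 or the 3-week replicate 1 or 2. The male count of 1 at 6 weeks was 0 without the 6-week replicate 4 and 2 without uninduced replicate 3, the 1-week replicate 4 or the 3-week replicate 2 or 4. Scaled to total reads, 22 and 26 female genes were higher at 3 and 6 weeks, and 4 and 1 male genes, with 0 lower. Of all genes, 7108 and 8356 of 16956 were then higher in females, and 3876 and 3606 of 16931 in males. The male counts thus stayed below the general share.

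*Tyms* showed nearly the same female change at all 3 times. Female hearts had 3.91, 3.5, 4.03 and 4.29 CPM at 3 weeks and 3.69, 4.68, 4.07 and 3.55 CPM at 6 weeks, all above the highest control. The changes were 0.97 ± 0.16 and 0.99 ± 0.16 (adjusted p = 7.37e-05 and 4.41e-05), next to 1.03 at 1 week. Male hearts had 2.55, 4.3, 2.07 and 1.66 CPM at 3 weeks and 3.3, 2.47 and 2.59 CPM at 6 weeks. The hearts at 6 weeks were again all above the controls, and the changes of 0.69 ± 0.28 and 0.82 ± 0.30 did not pass (adjusted p = 0.092 and 0.0528).

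Together with *Tyms*, *Top2a*, *Bub1b*, *Nusap1* and *Mcm4* passed as higher in females at all 3 times. *Bub1b* was at 3.87, 1.94, 2.5 and 2.7 CPM at 3 weeks and 3.21, 2.92, 4.07 and 2.28 CPM at 6 weeks, all above controls (0.71 ± 0.22 and 0.88 ± 0.22, adjusted p = 0.019 and 0.00367). *Top2a* was at 7.51, 3.34, 5.52 and 6.79 CPM and 7.06, 6.74, 8.99 and 4.38 CPM (0.73 ± 0.27 and 0.95 ± 0.27, adjusted p = 0.0479 and 0.0084). Its 3-week replicate 2, the second value, lay within the control range, while all hearts at 6 weeks lay above it. *Mcm4* was at 10.2, 8.25, 9.63 and 9.23 CPM and 9.43, 10.4, 13 and 11.8 CPM (0.46 ± 0.12 and 0.70 ± 0.12, adjusted p = 0.00619 and 0.000108). In males *Mcm4* was at 8.06, 9.52, 10.7 and 10 CPM at 3 weeks, above all controls (log2 fold change 0.51 ± 0.17, adjusted p = 0.036), and at 8.5, 9.46 and 8.44 CPM at 6 weeks (log2 fold change 0.40 ± 0.18, adjusted p = 0.11). All 3 male hearts at 6 weeks lay above the controls as well. The male call at 3 weeks did not hold without replicate 1, 2 or 3 of every group, when the change was 0.37, 0.51 or 0.53.

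All 12 female genes that were higher at 6 weeks had also been higher at 1 week. Beside those above they were *Cdk1*, *Aurkb*, *Kif11*, *Cenpe*, *Anln*, *Mcm3* and *Mcm6*. *Cdk1* was at 2.58, 2.79, 2.81 and 1.6 CPM, all above controls (log2 fold change 0.89 ± 0.27, adjusted p = 0.0112). *Aurkb* was at 1.43, 1.85, 1.76 and 0.894 CPM, with replicate 4 inside the control range (log2 fold change 0.68 ± 0.21, adjusted p = 0.0131). *Mcm3* rose by 0.74 at 6 weeks (adjusted p = 0.000877), above its 0.50 at 1 week, and was the only 1 of the 12 whose 6-week change exceeded that at 1 week.

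Other genes that had been higher at 1 week, in females, in males or in both, did not pass as higher at 6 weeks. Of those named here *Mki67* and *Kif23* had passed at 1 week in females only, and *Birc5* in males only. *Ccnb1* was at 1.15, 0.988, 1.23 and 0.493 CPM in females at 6 weeks (log2 fold change 0.35 ± 0.26, adjusted p = 0.303) and 0.801, 0.741 and 0.63 CPM in males (log2 fold change -0.06 ± 0.27, adjusted p = 0.891). *Mki67* was at 8.01, 7, 11.3 and 4.04 CPM in females (log2 fold change 0.47 ± 0.28, adjusted p = 0.184) and 5.37, 4.8 and 2.22 CPM in males (log2 fold change -0.66 ± 0.36, adjusted p = 0.182), with overlap with controls in both sexes. *Plk1* was at 1.31, 1.37, 1.09 and 0.493 CPM in females (log2 fold change 0.48 ± 0.21, adjusted p = 0.0703) and *Birc5* at 1.51, 0.812 and 0.653 CPM in males (log2 fold change 0.18 ± 0.25, adjusted p = 0.622). *Kif23*, the kinesin of the central spindle, fell in males to 1.31, 1.55 and 0.653 CPM at 6 weeks from 1.99, 2.35 and 2.95 CPM in controls (log2 fold change -0.84 ± 0.23, adjusted p = 0.0116). All 3 hearts lay below the controls, but the fall did not pass without the 6-week replicate 4, and scaled to total reads it was -0.67 (adjusted p = 0.0658). The female *Kif23* change at 6 weeks was 0.17 ± 0.20.

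Of the 39 genes, 36 in males and 35 in females had their highest mean, among controls and the 3 induced groups, at 1 week. Direct tests between the weeks nevertheless called few. From 1 to 3 weeks 0 of the 39 passed in either sex by limma or edgeR, against 0.0177% of all male and 0.218% of all female genes, although 22 male and 23 female genes were lower at an unadjusted p below 0.05. Of all genes, 2710 of 16931 in males and 1699 of 16956 in females reached that level in either direction. The median change of the 39 was -0.57 in males and -0.50 in females. From 1 to 6 weeks 1 male gene passed as lower (*Kif23*, -1.16 ± 0.22, adjusted p = 0.0348) against 0.165% of all genes, with a median of -0.71 and 29 genes at an unadjusted p below 0.05. Of all male genes 2615 reached that unadjusted level. By edgeR the count of passing genes was 0. It was also 0 without control replicate 3, uninduced replicate 4, any 1 of the hearts at 1 week or the 6-week replicate 4, and it was 5 without uninduced replicate 3 and 3 without the 6-week replicate 1. In females 0 passed by either tool against 1.03%, with a median of -0.41 and 11 genes at an unadjusted p below 0.05, which 2137 of all female genes reached. Between 3 and 6 weeks 0 passed in either sex by either tool, where 0% of all genes passed in males and 0% in females, and 1 gene in each sex reached an unadjusted p below 0.05. Of all genes 1072 in males and 2572 in females did so.

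**Figure D3:**
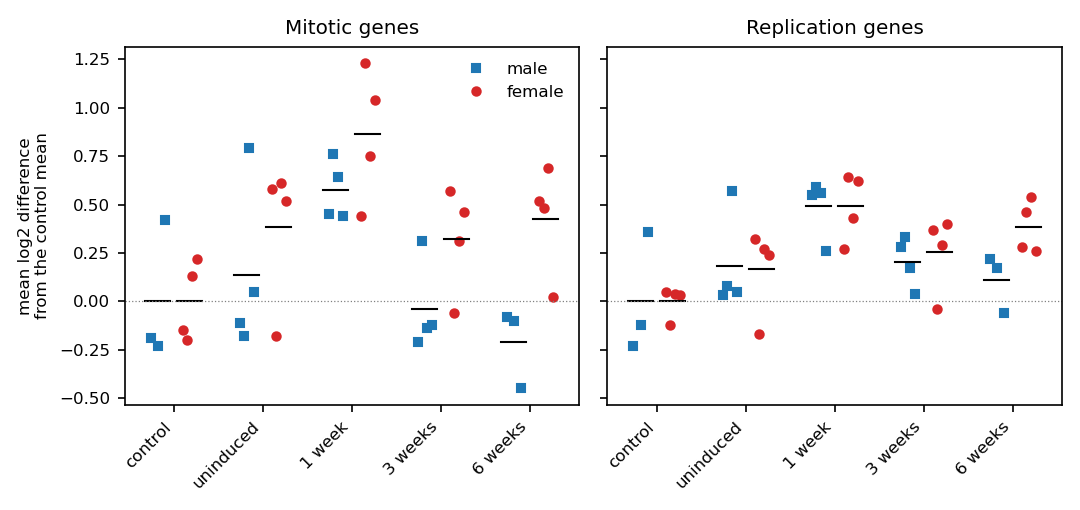
Mean over the 27 mitotic genes (left) and the 12 replication genes (right) of log2(CPM + 0.5) minus the control mean of the same sex, for every library of the 5 groups, with a black line at each group mean and no test. Hearts at 1 week lay at 0.44 to 1.23 for the mitotic genes, male hearts at 6 weeks at -0.45 to -0.08, and female hearts at 6 weeks at 0.02 to 0.69.

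Averaged over the 27 mitotic genes, the difference from the control mean was 0.44 to 1.23 in the 4 female and 0.44 to 0.76 in the 4 male hearts at 1 week. Male control replicate 4 reached 0.42 and male uninduced replicate 3 reached 0.79, while the other male controls and uninduced hearts lay between -0.23 and 0.05. At 6 weeks the male hearts were at -0.08, -0.10 and -0.45, and the female hearts at 0.52, 0.48, 0.69 and 0.02. For the 12 replication genes the male hearts were at 0.22, 0.17 and -0.06 at 6 weeks and the female hearts at 0.28, 0.46, 0.54 and 0.26, so that all 4 female hearts exceeded the highest female control, at 0.05. These averages over listed genes carry no test.

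Uninduced CM-Il11-Tg hearts, which held low *Il11* without tamoxifen, showed no gene of the 39 past the threshold. The controls had received tamoxifen, so transgene and tamoxifen cannot be told apart in this comparison. Induced and uninduced hearts likewise differ in tamoxifen, time and *Il11* level together. The count was 0 in both sexes by limma and by edgeR, against 0.597% of all male and 2.87% of all female genes. At an unadjusted p below 0.05 limma gave 0 male and 9 female genes, where 1789 of all 16931 male and 2605 of all 16956 female genes reached that level. The median change of the 39 was 0.15 in males and 0.33 in females, with 35 of the 39 female genes above 0. The median of all genes was 0.01 and 0.00. Without uninduced replicate 2 the female count was 1. *Hmmr* and *Tpx2* had the largest female values, 0.73 ± 0.28 and 0.70 ± 0.24 (adjusted p = 0.201 and 0.144).

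*Top2a* shows how the uninduced libraries were spread. In females it was at 6.19, 2.56, 6.7 and 5.58 CPM, with replicate 2 at the control level and the other 3 above every control. In males it was at 3.76, 4.03, 13.7 and 4.56 CPM, where replicate 3 exceeded even the hearts at 1 week. *Mki67* was at 6.05, 5.43, 13.3 and 5.98 CPM in the same male hearts and *Cdk1* at 1.33, 0.83, 3.56 and 1.57 CPM, with replicate 3 again the highest.

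Against the uninduced hearts, 7 male genes passed at 1 week, 6 higher (*Ccnb1*, *Bub1b*, *Birc5*, *Ube2c*, *Mcm6* and *Tyms*) and *Cenpf* lower, against 18.8% of all male genes. Without uninduced replicate 3 the count was 20, and it was 4 without uninduced replicate 1, uninduced replicate 2 or the 1-week replicate 2. In females 6 passed as higher (*Ccnb2*, *Melk*, *Nusap1*, *Mcm4*, *Tyms* and *Top2a*) against 12.6%. That count ranged from 2, without uninduced replicate 2 or the 1-week replicate 4, to 11, without the 1-week replicate 1, and was 3 without the 1-week replicate 2 or 3. By edgeR male *Tyms* and female *Melk* did not pass here (adjusted p = 0.0544 and 0.0815). At 3 weeks 1 gene passed in each sex, *Tyms* higher in females and *Cenpf* lower in males, against 16.7% and 16.1%. At 6 weeks *Mcm3*, *Mcm4* and *Tyms* were higher in females against 22.8%, and *Kif23* and *Cenpf* lower in males against 20.4%. The male count at 6 weeks was 0 without the 6-week replicate 4. *Cenpf* was -1.24 ± 0.26, -1.18 ± 0.26 and -0.98 ± 0.28 relative to uninduced males at the 3 times.

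Whether the sexes differed in their change against control was tested directly. No gene of the 39 passed at 1, 3 or 6 weeks, by limma or by edgeR, and the share of all 16627 genes tested was 0%, 0% and 0%. At an unadjusted p below 0.05 there were 3, 0 and 7 of the 39. Of all 16627 genes tested 2908, 691 and 2886 reached that level, so the share at 6 weeks was near the general one. At 6 weeks these 7 were *Mki67*, *Ccnb2*, *Cdc20*, *Kif11*, *Kif23*, *Tpx2* and *Top2a*, all with the higher change in females. For *Top2a* the difference was 1.35 ± 0.49 (adjusted p = 0.17) and for *Kif23* 1.01 ± 0.31 (adjusted p = 0.138). The genes that passed in 1 sex alone were thus not shown to differ between the sexes.

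For single genes an exact two-sided permutation test of the mean log2 level could not go below p = 0.0286 with 4 hearts against 3 or 4, nor below 0.1 with the 3 male hearts at 6 weeks against 3 controls. That lowest value was reached by 26 genes in females and 16 in males at 1 week, by 6 and 0 at 3 weeks, and by 8 in females at 6 weeks. The 26 and the 6 include *Cenpf*, which was lower. The male floor of 0.1 at 6 weeks was reached by 5 genes, *Mcm4* and *Tyms* higher and *Kif23*, *Cenpf* and *Ect2* lower. The share of all genes at these lowest values was not computed.

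Other genes of the cell cycle were followed in 9 lists of 117 genes, of which 115 were tested in each sex. At 1 week 34 were higher and 4 lower in females, and 26 and 5 in males, with a median change of 0.27 in each sex. Of all genes tested 15.3% were higher and 13.1% lower in females, and 18.9% and 14.6% in males, so that the male share of higher genes was near the general one. At 6 weeks 22 were higher and 8 lower in females, and 8 and 7 in males, against 21.7% and 21% of all female genes and 16.2% and 10.9% of all male genes, which puts the share of higher genes below the general one in both sexes. Of 14 further mitotic kinesins and spindle proteins 9 were higher at 1 week in females and 4 in males, with 0 lower. *Kif2c*, a kinesin that shortens microtubules at kinetochores, had mean values of 0.342 ± 0.242 CPM (SD) in female controls and 2.06 ± 0.547 CPM at 1 week (log2 fold change 1.62 ± 0.25, adjusted p = 4.89e-05), and 0.553 ± 0.251 and 2.51 ± 0.379 CPM in males (log2 fold change 1.53 ± 0.22, adjusted p = 3.23e-05). It remained higher at 6 weeks in both sexes (1.76 in females, adjusted p = 1.1e-05, and 0.91 in males, adjusted p = 0.00705).

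Of 13 kinetochore and checkpoint genes 6 were higher and 1 lower in females at 1 week, and 2 higher in males. Of all genes 15.3% were higher and 13.1% lower in females, and 18.9% higher in males. The male count was thus near the general share. *Incenp*, the scaffold of the passenger complex, rose from 3.27 ± 0.251 to 5.53 ± 0.139 CPM in females (log2 fold change 0.68 ± 0.14, adjusted p = 0.000728), and *Cdca8*, its borealin subunit, rose in males (log2 fold change 0.70 ± 0.20, adjusted p = 0.0102) and by 1.13 in females. The female gene that fell, named after its value was seen, was *Cenpa*, the centromeric histone (log2 fold change -0.70 ± 0.19, adjusted p = 0.00997). Of 9 condensin, cohesion and separase genes 6 were higher and 1 lower in females and 3 higher in males. *Smc4*, a condensin core subunit, rose from 15.4 ± 1.79 to 24.1 ± 0.819 CPM in females (log2 fold change 0.63 ± 0.10, adjusted p = 9.55e-05), and separase (*Espl1*) rose in males (log2 fold change 0.97 ± 0.22, adjusted p = 0.00208). Both genes passed in the other sex too, with 0.61 for *Smc4* in males and 0.98 for *Espl1* in females.

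Of 15 tested genes of origin recognition and firing 6 were higher in males and 2 in females, with 0 lower. Of all genes tested 18.9% were higher in males and 15.3% in females. The male count of this list was thus above the general share and the female count near it. *Gins2*, a subunit of the active helicase, rose from 0.324 ± 0.119 to 1.58 ± 0.232 CPM in males (log2 fold change 1.34 ± 0.17, adjusted p = 7.87e-06), and *Mcm10* rose in females (log2 fold change 0.99 ± 0.21, adjusted p = 0.00116). Each also passed in the other sex, *Gins2* at 0.68 and *Mcm10* at 0.65. Of 20 polymerase, clamp loader and fork genes 4 were higher in males, near the general share, and 2 in females, below it. DNA ligase 1 (*Lig1*) was the clearest in both (0.92 and 0.63). Of 7 nucleotide supply genes 1 was higher in males and 2 in females, and of 7 genes of replication-coupled chromatin 2 in each sex. Lists of 7 genes are too short to set such counts apart from the general shares. The thymidylate kinase *Dtymk* rose in males (log2 fold change 0.35 ± 0.12, adjusted p = 0.0361) and the deoxycytidine kinase *Dck* in females (log2 fold change 0.91 ± 0.14, adjusted p = 6.93e-05). *Chaf1a*, a chaperone that sets histones on new DNA, rose in males (log2 fold change 0.55 ± 0.20, adjusted p = 0.0357), and *Slbp*, which binds replication-dependent histone mRNA, rose in females (log2 fold change 0.36 ± 0.09, adjusted p = 0.00592) and by 0.43 in males.

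Of 18 genes of the E2F, RB and DREAM group 4 were higher and 1 lower in females at 1 week, and 2 higher and 4 lower in males, where 18.9% and 14.6% of all genes passed. The male counts are thus near the general share. *E2f1*, an activator of S phase genes, rose from 1.17 ± 0.391 to 2.91 ± 0.885 CPM in females (log2 fold change 1.03 ± 0.18, adjusted p = 0.000255) and from 1.19 ± 0.54 to 3.16 ± 0.458 CPM in males (log2 fold change 1.15 ± 0.22, adjusted p = 0.000628). *Tfdp2*, an E2F dimerization partner, fell in both (-0.80 and -1.05). Of 12 cyclins and kinases of G1 and S phase 1 was higher and 1 lower in females, and 2 higher and 1 lower in males. These counts were near or below the shares of all genes, which in females were 15.3% higher and 13.1% lower. Cyclin E1 (*Ccne1*) rose in females (log2 fold change 0.72 ± 0.19, adjusted p = 0.00601) and by 0.66 in males, and *Cdk4*, the kinase of the D-type cyclins, rose in males from 26.8 ± 1.95 to 42.3 ± 1.82 CPM (log2 fold change 0.65 ± 0.13, adjusted p = 0.000888).

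**Figure D4:**
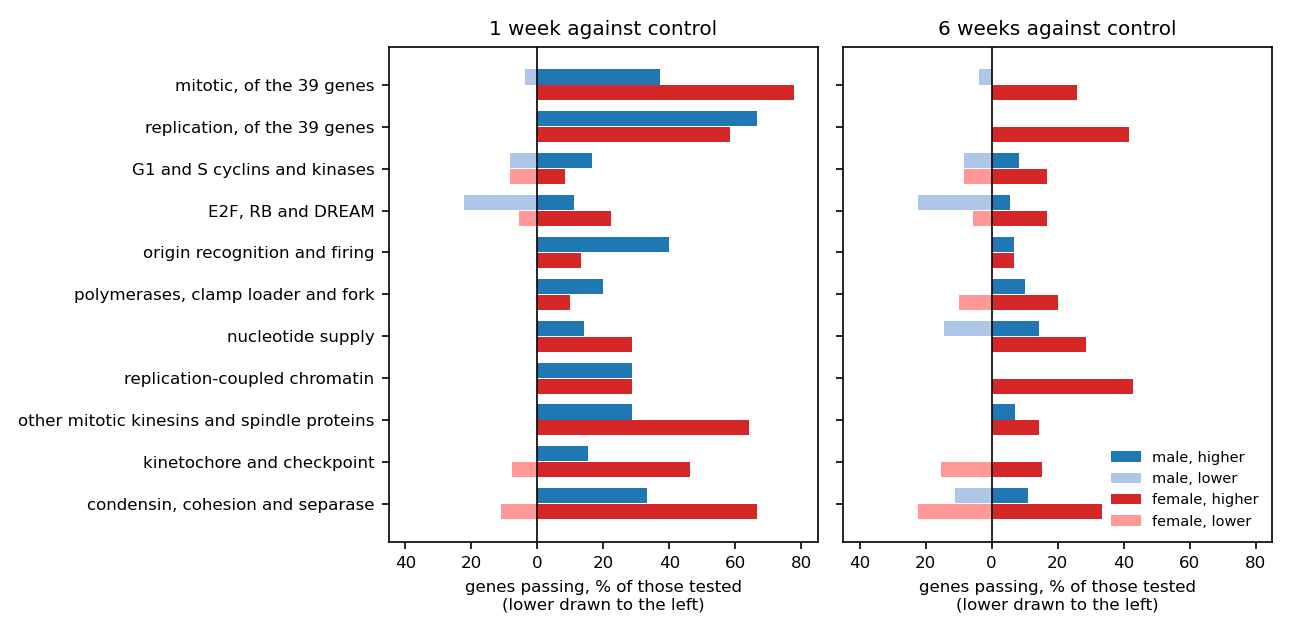
Percentage of tested genes that passed as higher (dark bars, right) or lower (pale bars, left) against control at 1 and 6 weeks, for males (blue) and females (red), in the 27 mitotic and 12 replication genes and in 9 lists of other cell cycle genes. At 1 week 15 of the 39 genes were higher in both sexes, 13 in females only and 3 in males only. The share of all genes tested that was higher at 1 week, which is not drawn, was 15.3% in females and 18.9% in males.

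Markers of the cell types that could hold these transcripts differed as well, here on the authors' scaling, whereas scaling to total reads moves all genes up by 0.16 to 0.33. All 10 macrophage and monocyte markers were higher in both sexes at every time after tamoxifen, when 13.2% to 21.7% of all genes tested were higher. Their summed level was 194 to 252 CPM in female controls, 912 to 981 CPM at 1 week, 952 to 1210 CPM at 3 weeks and 1076 to 1231 CPM at 6 weeks. In males the sums were 213 to 343 CPM in controls, 828 to 949 CPM at 1 week, 793 to 1038 CPM at 3 weeks and 887 to 1243 CPM at 6 weeks. In uninduced females 8 of these 10 markers were higher, with sums of 364 to 486 CPM, and in uninduced males 0 were, with 306 to 443 CPM.

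Fibroblast markers passed as higher for 7 or 8 of 10 genes and as lower for 1 in each sex at each time. The sums went from 2014 to 2395 CPM in female controls to 6293 to 11372 CPM at 1 week and 7162 to 12491 CPM at 6 weeks, and from 1535 to 2016 CPM to 7560 to 10333 CPM and 5291 to 7168 CPM in males. Endothelial markers passed as lower for 6 or 7 of 10 genes in females and 3 or 4 in males, with sums at 1 week of 752 to 857 CPM in females and 784 to 921 CPM in males, against 1083 to 1236 CPM and 1130 to 1292 CPM in controls. Cardiomyocyte markers passed as lower for 3 to 5 of 10 genes in females and 2 or 3 in males. Pericyte and smooth muscle markers passed as lower for 1 or 2 of 10, and none of these 3 lists had a gene that passed as higher. Over the times after tamoxifen 13.1% to 21% of all genes were lower in females and 8.1% to 14.6% in males. The pericyte and smooth muscle counts were thus near the general share. At 1 week the cardiomyocyte sums were 35982 to 50868 CPM in females and 37907 to 60817 CPM in males, against 42753 to 61587 CPM and 58068 to 69294 CPM in controls.

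Markers of lymphocytes, neutrophils and red cells were low or varied widely. At 1 week 1 of the tested T cell markers was higher in each sex, as were 2 of the B and plasma cell markers, and 3 female and 2 male neutrophil markers. Of all genes 15.3% were then higher in females and 18.9% in males. At 6 weeks 7 of 9 T cell markers were higher in females and 1 of 6 in males, against 21.7% and 16.2% of all genes. Their sums were 12.5 to 20.4 CPM and 8.79 to 11.1 CPM. All 7 erythroid markers tested were higher in females at 1 week, with sums of 3133 to 8350 CPM against 1396 to 2326 CPM in controls, and 0 of them passed in females at 3 or 6 weeks. In males 0 of 6 passed at any time, with sums of 1697 to 7903 CPM in controls, 2649 to 5913 CPM at 1 week and up to 15968 CPM at 6 weeks. No listed marker of the macrophage, fibroblast, endothelial, T cell or erythroid lists was at 0 in every grouped library of a sex. Of the 10 T cell markers 7 were listed in males. The part of each of these cell types in the change of the 39 genes was not tested.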

How the data were processed

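Heart RNA of 40 mice was sequenced from polyA libraries. Per the study's methods, STAR (genome GRCm39) and featureCounts gave the counts per gene and edgeR was used downstream. The values the authors deposited, in 1 table per sex, are a signal per gene: CPM, counts divided by a scaled library size. All values were whole multiples, within 0.001, of what 1 read is worth, so that the read counts behind the deposited values could be recovered. No column of other samples was present (0). The 38 grouped libraries held 16663513 to 65333832 reads, and 2 male libraries were left out because their labels contradict each other.

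Groups were compared within a sex on log2(CPM + 0.5) by limma 3.58.1 in R 4.3.3, with all 5 groups in the fit, a trend of the variance with level, at least 0.5 CPM in 3 libraries, and Benjamini-Hochberg adjustment over all genes tested. The difference between the sexes came from a joint fit. The p-values measure the spread between mice, with 1 library per mouse. edgeR 4.0.16 on the recovered reads, DESeq2 1.42.0 scaling, other pseudocounts, no filter, a minimum 2-fold change, a replicate block and leaving out replicates were alternatives. Scripts were tested on simulated data. Replicates differed by more than sampling noise, with a mean chi-square per gene of at least 6.76 over 54 pairs.

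The 39 genes, the lists of other cell cycle genes and the 9 marker lists were chosen with earlier results of these data known. Values in every library are given for 21 genes picked by role and for the 3 with the largest rise and fall among passing genes at each sex and time. Of each other list, the gene with the lowest adjusted p in each sex at 1 and 6 weeks could be named.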

Additional observations from a re-analysis of the deposited data

Results flagged for a closer look

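In 208 groups of 4 libraries, 1 per gene, sex and group, 20 had a library that stood apart by Dixon's criterion, where chance gives about 1 in 20 groups. Male uninduced replicate 3 accounted for 8 of them, all high. It was at 13.3 CPM for *Mki67* (5.43 to 6.05 in the other libraries of its group), 3.67 for *Foxm1* (1.62 to 1.8), 3.73 for *Kif11* (1.65 to 1.73), 3.5 for *Nusap1* (1.48 to 1.72), 4.36 for *Anln* (1.55 to 1.85), 10.6 for *Mcm6* (7.15 to 7.7), 13.7 for *Top2a* (3.76 to 4.56) and 3.44 for *Bub1b* (1.4 to 1.75). Female uninduced replicate 2 was low, at 0.342 CPM for *Cdc6* (0.857 to 0.931) and 1.02 for *Bub1b* (2.43 to 2.52).

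In males at 3 weeks replicate 2 was high for *Ccnb1* (1.43 CPM, others 0.501 to 0.592) and *Anln* (3.04 CPM, others 1.54 to 1.68), and replicate 4 was low for *Birc5* (0.92 CPM, others 1.35 to 1.41). In females at 3 weeks replicate 2 was low for *Aurkb* (0.76 CPM, others 1.33 to 1.44) and *Kif23* (0.988 CPM, others 2.19 to 2.38). At 1 week female replicate 2 was high for *Mki67* (12.4 CPM, others 8.78 to 8.93). Among female controls replicate 3 was high for *Cdk1* (1.4 CPM, others 0.947 to 0.998), and replicate 2 was low for *Tyms* (1.4 CPM, others 1.85 to 1.94) and high for *Cenpf* (22.1 CPM, others 13.3 to 13.8). Female replicate 4 at 6 weeks was high for *Cenpf* (20 CPM, others 7.69 to 9.45).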

How the results depend on the processing

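The counts of passing genes were recomputed under each alternative, and no call of the 26 genes shown in full reversed its direction. Small male changes that did not pass could change sign when reads were scaled to library totals. For *Mki67* at 3 weeks the change went from -0.07 to 0.17, and for *Ccnb1* at 6 weeks from -0.06 to 0.05. Scaling to total reads, chosen after seeing the data, gave 29 genes in males at 1 week, 4 at 3 weeks and 14 at 1 week against uninduced. In females it gave 22 at 3 weeks and 26 at 6 weeks, and 13, 2 and 8 against uninduced at 1, 3 and 6 weeks, with all genes shifted upwards. All genes higher under it were, in the same order, 6410, 3876 and 3229 of 16931 in males. In females they were 7108, 8356, 2750, 3243 and 4857 of 16956. Requiring a 2-fold change left 5 male and 14 female genes at 1 week, 1 male gene (*Cenpf*) against uninduced at 1 week and 1 at 3 weeks, and 0 in both sexes at 3 and 6 weeks and in the comparisons of the other times and of females with uninduced hearts. From 1 to 6 weeks the male count of 1 was kept. With pseudocount 0.1 or the replicate block 2 male genes passed at 6 weeks. From 1 to 6 weeks the male count of 1 was 2 with pseudocount 2, and 0 with edgeR or the replicate block. The replicate block gave 16 male and 28 female genes at 1 week. Replicate numbers did not pair the libraries. Deviations from the group means had a mean correlation, over same-numbered libraries, of 0.0132 in males and 0.0255 in females, and 5 of 18 and 9 of 20 libraries correlated best with their own number. Leaving out 1 replicate number in all groups, or 1 library (chosen after seeing the data), gave in males 6 to 24 genes at 1 week, 0 to 3 at 3 weeks and 0 to 2 at 6 weeks. Against uninduced males it gave 1 to 20 at 1 week and 0 to 3 at 6 weeks, and 0 to 5 from 1 to 6 weeks. In females the ranges were 17 to 30, 2 to 11 and 5 to 17, with 0 to 1 for uninduced hearts against control. Against uninduced females they were 0 to 11, 0 to 1 and 1 to 3. The cause of these changes was not tested, beyond the smaller number of libraries. Of 156 results for 26 single genes, edgeR kept the call of 151, no filter of 156 and total-read scaling of 116. Few reads, down to 1 for a gene in a library, limited the low genes.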

Other observations

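The 2 male libraries whose labels contradict each other entered no comparison. In the library titled as a 6-week heart *Il11* was at 0.597 CPM, and in the library titled as a control it was at 511 CPM. The mean log2 difference of the 39 genes from the male control mean was 0.03 in the library titled as a 6-week heart (0.01 for the mitotic and 0.08 for the replication genes). It was -0.13 in the library titled as a control (-0.23 for the mitotic and 0.09 for the replication genes). In the library titled as a 6-week heart *Mki67* was at 6.17 CPM, *Top2a* at 3.66 CPM, *Ccnb1* at 0.557 CPM, *Cdk1* at 0.995 CPM, *Tyms* at 0.995 CPM and *Cenpf* at 15.6 CPM. In the library titled as a control *Mki67* was at 3.45 CPM, *Top2a* at 4.14 CPM, *Ccnb1* at 0.287 CPM, *Cdk1* at 0.41 CPM, *Tyms* at 2.71 CPM and *Cenpf* at 3.32 CPM.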
